A study of Mus musculus with 10 samples.

Results

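The 10 genes Col1a1, Col1a2, Col3a1, Col5a1, Col5a2, Col5a3, Col6a1, Col12a1, Col14a1 and Col15a1 encode collagen chains that build fibrils, sit on fibrils or link them to their surroundings. They were followed in glomeruli, the filtering units of the kidney, of 5 Wt1 +/R394W and 5 Wt1 +/+ male mice aged 27 days. All probe sets whose platform annotation names only 1 of these genes were taken, which gave 23 of 45037 probe sets and 10 of 18193 genes. The genes were selected on their log2 differences between these genotypes on these arrays, so the differences and their adjusted p-values describe the genes and test nothing about them.

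The product of Wt1 is a DNA-binding regulator made by podocytes, whose foot processes hold the slit diaphragm. The mutants were heterozygous for a knock-in of the R394W change, which occurs in Denys-Drash syndrome. Glomeruli were collected with Dynabeads perfused through the heart. Both genotypes were unweaned littermates on FVB/N after 4 generations of backcrossing, and the submitters described little albuminuria and no mesangial lesions in the mutants. The knock-in is carried by every cell of the animal, and which mice shared a litter is not given in the sources used here. Each mouse gave 1 array of RMA values on the log2 scale, so the number of arrays limits the precision. Differences are given as mutant minus wild type, with 5 mice per genotype. Their standard error (SE) is the moderated one of limma, which draws the variance of each probe set towards that of all probe sets. A difference counted as passed where the adjusted p of limma over all 45037 probe sets was under 0.05. Levels of different probe sets depend on their probes and are not compared with each other.

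Collagens are made of 3 chains wound around each other in a triple helix. Type I collagen usually joins a pair of chains from Col1a1 with 1 from Col1a2, type III is built from Col3a1 alone, and type V, which starts and limits fibrils, joins chains of Col5a1, Col5a2 or Col5a3. Types XII and XIV, from Col12a1 and Col14a1, are not fibrils themselves but lie along their surface. Type VI forms beaded filaments from Col6a1 with other chains, and type XV, from Col15a1, lies where basement membranes meet fibrils. The normal glomerular basement membrane is built on type IV collagen, while fibrillar collagens are found in the mesangium, around vessels and in scars.

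After RMA, which normalizes between arrays, the array medians lay within 0.0817 of each other and correlations between arrays were 0.985 to 0.997. Close medians are set by that processing, and neither value shows that single genes or cell types were alike. Podocyte markers (Nphs1, Podxl, Synpo, Ptpro and Nes) averaged 13.06 to 13.19 in wild types and 12.90 to 13.22 in mutants. The Wt1 transcript differed by 0.33 ± 0.10 (SE, adjusted p = 0.244), and a missense allele need not change it, so it does not check the genotype labels.

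Of the 23 probe sets, 4 were higher and 3 lower in mutants at an adjusted p under 0.05, where 0.853% of all probe sets passed (0.391% higher and 0.462% lower). These 7 belonged to 4 genes: Col14a1 and Col5a1 rose, and Col1a2 and Col6a1 fell. The genotypes did not overlap in 8 of the 23, against 2.78% of all probe sets. Among these 8 is Col12a1 1434411_at, whose highest wild type and lowest mutant both round to 8.07. The median difference of the 23 was 0.16, and that of all probe sets was -0.0022. Since the genes were named with this comparison in view, nothing is read from these shares. The count of 7 dropped to 4 without wild type 1, wild type 3 or mutant 4. In whole glomeruli a lower or higher level can come from the number of cells of a type or from RNA per cell, and these cannot be told apart.

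**Figure D1:**
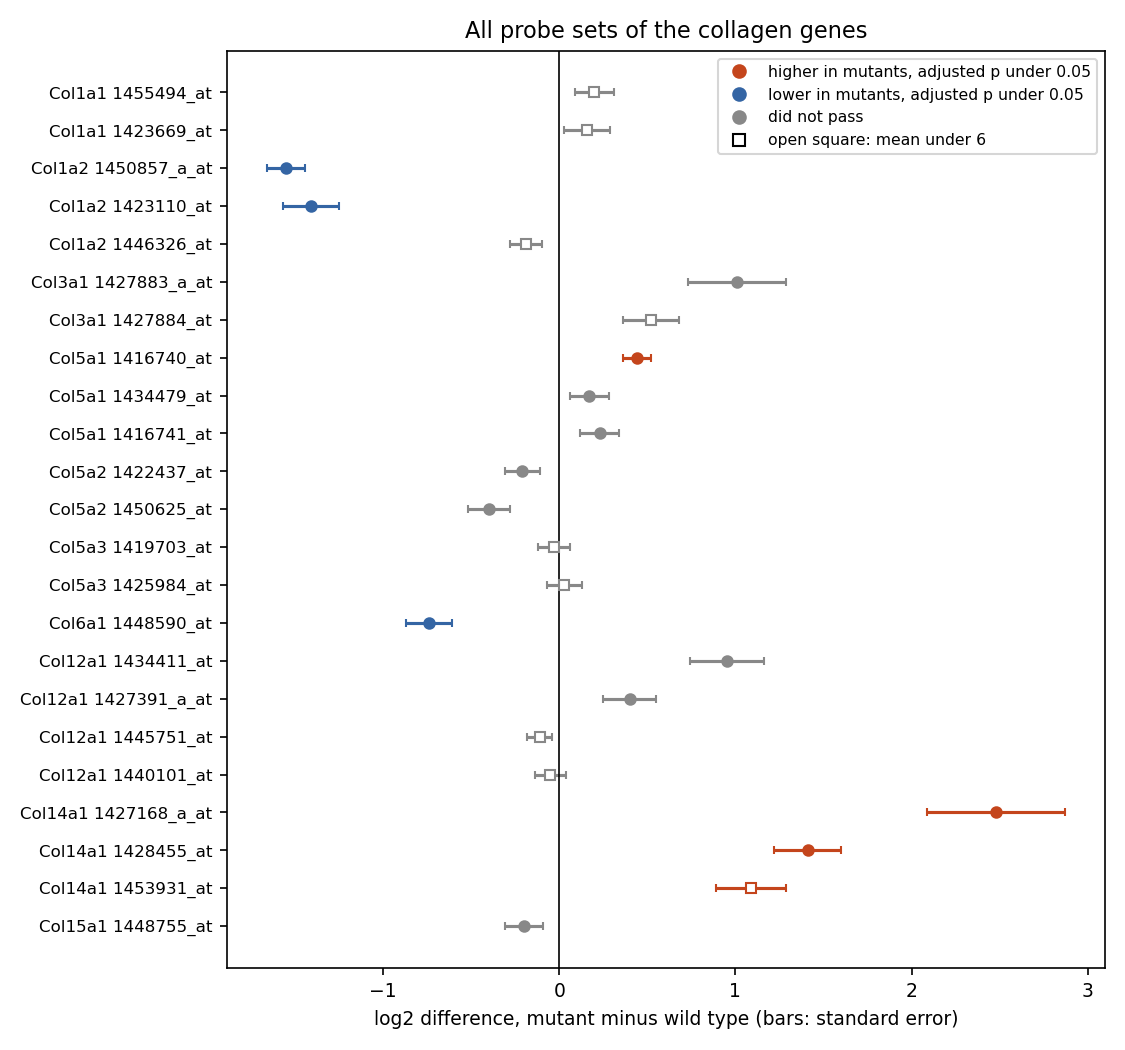
Differences between genotypes (mutant minus wild type, log2 units, x axis) of all 23 probe sets of the 10 genes, with standard errors as bars and 5 mice per genotype. Colour marks those with an adjusted p under 0.05, and open squares mark a mean under 6; Col14a1 lies farthest to the right (2.48) and Col1a2 farthest to the left (-1.55).

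The largest fall among these genes was in Col1a2, the second chain of type I collagen. Its brightest probe set (1450857_a_at, chromosome 6) read 12.28, 12.08, 12.29, 12.15 and 12.30 in wild types 1 to 5 and 10.29, 10.74, 10.94, 10.56 and 10.83 in mutants 1 to 5. Every mutant lay more than 1 log2 unit below every wild type. The difference was -1.55 ± 0.11 (SE, adjusted p = 5.98e-05), which is 2.93-fold, and it ranked 56 of 45037 by size. Wild types were close together, with an SD of 0.10 (n = 5) against 0.26 (n = 5) in mutants. The probe set 1423110_at gave 10.96, 10.36, 10.91, 10.64 and 11.14 in wild types and 8.98, 9.49, 9.62, 9.35 and 9.54 in mutants. It fell by 1.41 on the log2 scale (SE 0.16, adjusted p = 0.00135), again with no overlap. Both passed with each of the 10 mice left out, with differences of -1.62 to -1.45 and of -1.52 to -1.30. The remaining one, 1446326_at, had a mean of 3.55, near the bottom of the scale, and differed by -0.19 ± 0.09 (SE).

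**Figure D2:**
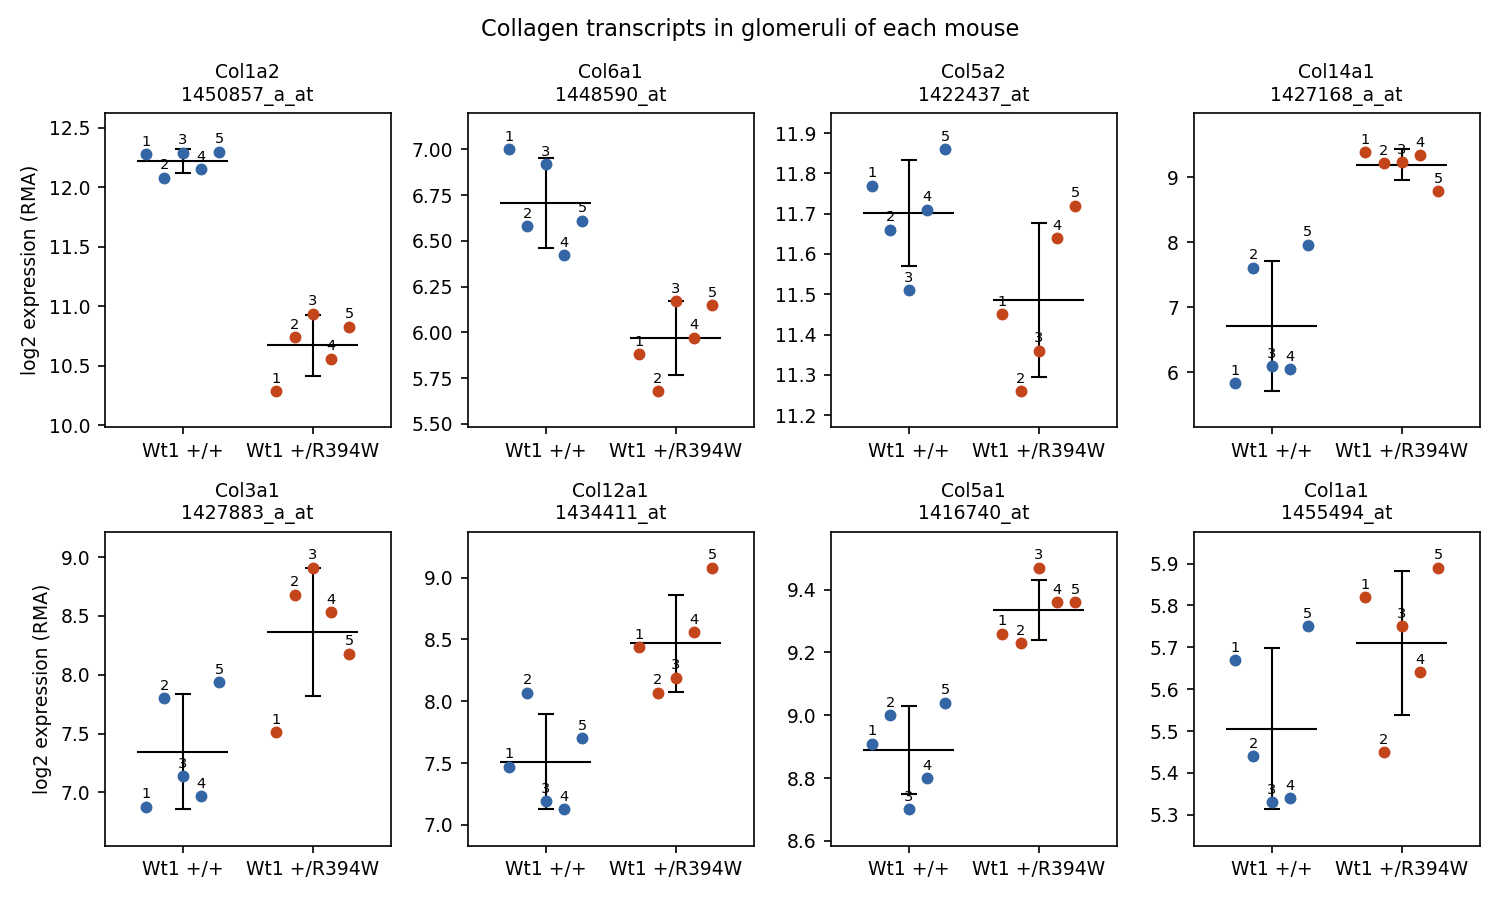
Log2 expression (y axis) of the brightest probe set of 8 of the collagen genes in each mouse, by genotype (x axis), with the number of the mouse above its point; the line is the mean and the bar the SD of 5 mice. All 5 mutants lie below all wild types for Col1a2 and Col6a1 and above them for Col14a1 and Col5a1, while the genotypes overlap for Col5a2, Col3a1 and Col1a1 and touch at 8.07 for Col12a1.

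The partner chain of type I collagen, Col1a1, did not pass. Its probe set 1455494_at (chromosome 11) read 5.67, 5.44, 5.33, 5.34 and 5.75 in wild types and 5.82, 5.45, 5.75, 5.64 and 5.89 in mutants. These ranges overlap, and the difference was 0.20 ± 0.11 (SE, adjusted p = 0.622). The second probe set, 1423669_at, differed by 0.16 ± 0.13 (SE, adjusted p = 0.777), with mutant 5 at 6.20 above the other mutants at 5.48 to 5.71. Both had low signal, at the 38th to 39th percentile of all probe sets by mean (38.7 and 38.5).

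Col6a1, the first chain of the beaded filaments of type VI collagen, fell as well. Its only probe set (1448590_at, chromosome 10) read 7.0, 6.58, 6.92, 6.42 and 6.61 in wild types and 5.88, 5.68, 6.17, 5.97 and 6.15 in mutants. The lowest wild type (6.42) stood above the highest mutant (6.17). The difference was -0.74 ± 0.13 (SE, adjusted p = 0.0213), or 1.67-fold. Leaving out wild type 1 or 3, or mutant 1 or 4, raised the adjusted p above the threshold (to 0.0595 at most), with differences of -0.81 to -0.67 over the mice left out. The chains that join it in type VI collagen, looked up after its values were seen, did not pass. Col6a2, its neighbour on the chromosome, differed by -0.12 ± 0.09 (SE, adjusted p = 0.750) and Col6a3 by 0.12 ± 0.13 (SE, adjusted p = 0.825).

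Promoter sequences of RefSeq (build GRCm38.p6) were matched by symbol for 6 of the 10 genes, namely Col1a2, Col3a1, Col5a1, Col5a3, Col6a1 and Col15a1. The 250 bases before the annotated start are shown for Col1a2 and Col6a1, which fell, and for Col5a1, which rose, so that genes that moved in opposite directions can be read side by side. They lie at chr6:4505368-4505617 on the plus strand, chr10:76726045-76726294 on the minus strand and chr2:27886175-27886424 on the plus strand. Each is written 5′ to 3′ in the direction of the gene, and capitals mark the box CCAAT, the GC box GGGCGG and the TATA box TATAAA on either strand.
Col1a2: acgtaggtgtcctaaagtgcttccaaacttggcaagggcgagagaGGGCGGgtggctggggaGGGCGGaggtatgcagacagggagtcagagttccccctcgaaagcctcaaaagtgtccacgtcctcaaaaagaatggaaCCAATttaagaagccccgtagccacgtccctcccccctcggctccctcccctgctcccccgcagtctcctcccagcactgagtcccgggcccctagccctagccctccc
Col6a1: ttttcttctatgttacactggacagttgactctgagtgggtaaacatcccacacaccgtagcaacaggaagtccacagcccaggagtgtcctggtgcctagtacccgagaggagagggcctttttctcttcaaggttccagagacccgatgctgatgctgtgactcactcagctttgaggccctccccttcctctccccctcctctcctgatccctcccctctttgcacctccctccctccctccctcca
Col5a1: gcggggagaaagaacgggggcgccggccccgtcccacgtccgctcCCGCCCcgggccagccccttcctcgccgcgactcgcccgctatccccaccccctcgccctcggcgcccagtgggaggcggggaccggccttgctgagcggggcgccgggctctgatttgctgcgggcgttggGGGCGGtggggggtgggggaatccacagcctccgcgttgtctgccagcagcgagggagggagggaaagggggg

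The window of Col1a2 held CCAAT at 109 to 105 bases before the start and GGGCGG at 205 to 200 and 188 to 183. Col5a1 held GGGCGG at 73 to 68 and, on the opposite strand, at 205 to 200, and had a GC content of 76.4%. Col1a2 had 62.0% and Col6a1 56.0%, and the median of all windows was 52.4%. None of the capitalised motifs was in the Col6a1 window. Over 32851 windows of the same length, 33.8% held the box CCAAT, 32.7% the GC box and 12.4% the TATA box. The letters GCGTGGGAG, a form of the WT1 element, were in 0 of the 6 windows of these genes and in 0.405% of all windows. GCGGGGGCG, the EGR1 form, was in 0 of the 6 and in 2.57%, and CAGACA, which SMAD proteins can bind, was in 3 of the 6 (Col1a2, Col3a1 and Col5a1) and in 17.1%. These matches describe letters in 1 window per gene and show no binding.

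Col14a1, the chain of fibril-associated type XIV collagen, rose most and did so at all 3 of its probe sets. The brightest (1427168_a_at, chromosome 15) read 5.83, 7.61, 6.10, 6.05 and 7.96 in wild types and 9.38, 9.21, 9.23, 9.34 and 8.78 in mutants. Wild types thus lay in 2 places, with mice 2 and 5 well above mice 1, 3 and 4, while 4 of the 5 mutants lay within 0.2 of each other. The difference was 2.48 ± 0.39 (SE, adjusted p = 0.0130), or 5.57-fold, and ranked 9 of 45037 by size. The SD was 1.0 (n = 5) in wild types and 0.24 (n = 5) in mutants.

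The same order of wild types was seen at 1428455_at, with 5.84, 6.77, 6.41, 6.16 and 7.03, against 7.86, 7.91, 8.0, 7.90 and 7.61 in mutants. Its difference was 1.41 ± 0.19 (SE, adjusted p = 0.00527). Deviations from the genotype means at these 2 probe sets correlated at 0.93 over the 10 arrays, and those of 1427168_a_at and 1453931_at at 0.16. At 1453931_at, with a mean of only 4.95, the difference was 1.09 ± 0.20 (SE, adjusted p = 0.0313), and it passed only without wild type 5 or mutant 1 when a mouse was left out (adjusted p up to 0.0863 otherwise). The other 2 passed without any 1 mouse, with 2.26 to 2.79 and 1.26 to 1.56.

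Col12a1, the second fibril-associated chain, differed in the same direction without passing. At 1434411_at (chromosome 9) wild types read 7.47, 8.07, 7.19, 7.13 and 7.70 and mutants 8.44, 8.07, 8.19, 8.56 and 9.08. Wild type 2 and mutant 2 stood side by side at the border, and mutant 5 was highest. The difference of 0.95 ± 0.21 (SE) had an adjusted p of 0.0783, and of 0.0425 without wild type 2. The other probe set of usable signal, 1427391_a_at, read 7.30 to 7.63 in wild types and 7.54 to 8.49 in mutants, a difference of 0.40 ± 0.15 (SE, adjusted p = 0.415). Its highest value was again mutant 5. The remaining 2 had means of 3.90 and 3.64 and differed by -0.11 ± 0.07 and -0.05 ± 0.09 (SE).

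Col3a1, the chain of type III collagen, showed the widest scatter of the fibrillar genes. At 1427883_a_at (chromosome 1) wild types read 6.88, 7.80, 7.14, 6.97 and 7.94 and mutants 7.51, 8.68, 8.91, 8.53 and 8.18. Wild types 2 and 5 were again the highest of their genotype, and mutant 1 lay below both of them. The difference of 1.01 ± 0.28 (SE) did not pass (adjusted p = 0.186), and its SD within genotypes, 0.52, was at the 97.8th percentile of all probe sets. Without mutant 1 it was 1.23 and still did not pass (lowest adjusted p over the mice left out 0.0564). The dim 1427884_at, with a mean of 4.37, differed by 0.52 ± 0.16 (SE, adjusted p = 0.271).

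Of the chains of type V collagen only Col5a1 passed, at 1 of its 3 probe sets. Col5a1, which codes for the main chain (chromosome 2, as Wt1), read 8.91, 9.0, 8.70, 8.80 and 9.04 in wild types and 9.26, 9.23, 9.47, 9.36 and 9.36 in mutants at 1416740_at. The highest wild type (9.04) lay below the lowest mutant (9.23), with a difference of 0.44 ± 0.08 (SE, adjusted p = 0.0252), or 1.36-fold. This was the smallest of the 7 differences that passed. The call was lost when any of wild types 1, 3 and 4 or mutants 3, 4 and 5 was left out, with 0.0779 as the highest adjusted p. The other probe sets, 1434479_at and 1416741_at, were positive but did not pass, at 0.17 ± 0.11 and 0.23 ± 0.11 (SE). Their deviations correlated with those of 1416740_at over the 10 arrays (0.87 and 0.82). The mean of all 3 probe sets differed by 0.28 ± 0.09 (SE, adjusted p = 0.218), so the call rests on 1 of them.

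Col5a2, the partner of Col5a1 in the common form of type V, differed in the opposite direction without passing. At 1422437_at (chromosome 1) wild types read 11.77, 11.66, 11.51, 11.71 and 11.86 and mutants 11.45, 11.26, 11.36, 11.64 and 11.72. Mutants 4 and 5 lay among the wild types, and the difference was -0.21 ± 0.10 (SE, adjusted p = 0.546). At 1450625_at it was -0.40 ± 0.12 (SE, adjusted p = 0.260). Col5a2 and Col3a1 are neighbours among the protein-coding genes of chromosome 1, and their differences had opposite signs. Gulp1, on the other side of Col3a1, was higher in mutants by 0.42 ± 0.08 (SE). It is named here after its value was seen.

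Col5a3 and Col15a1 had small differences that did not pass. Col5a3, the third chain of type V, differed by -0.03 ± 0.09 (SE) at 1419703_at and by 0.03 ± 0.10 (SE) at 1425984_at, with low means of 5.60 and 4.56. Col15a1, the chain of type XV collagen, read 9.83, 9.56, 9.82, 9.69 and 9.70 in wild types and 9.37, 9.46, 9.67, 9.87 and 9.26 in mutants (1448755_at, chromosome 4). The ranges overlapped, since mutant 4 was the highest of all, and the difference was -0.20 ± 0.11 (SE, adjusted p = 0.647).

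**Figure D3:**
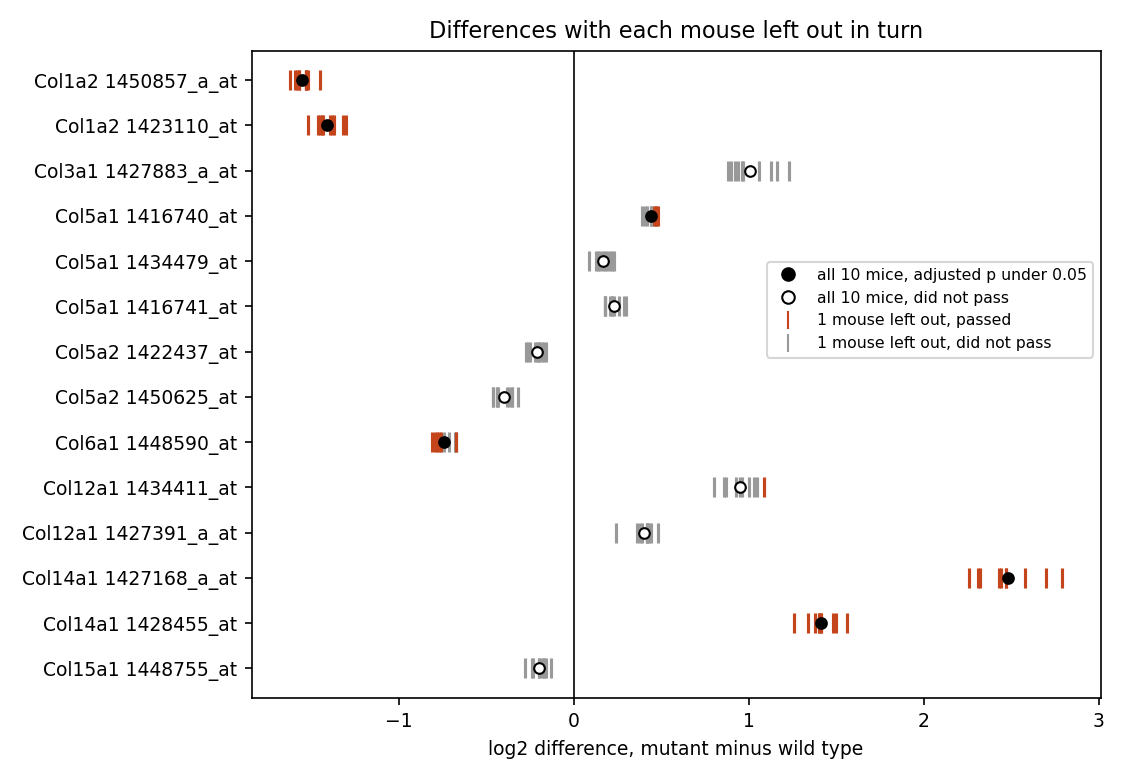
Differences (mutant minus wild type, log2 units, x axis) of the 14 probe sets with a mean of at least 6, over all 10 mice (circles, filled where the adjusted p was under 0.05) and with each mouse left out in turn (ticks, red where it stayed under 0.05). Both bright Col1a2 probe sets and both bright Col14a1 probe sets passed in all 10 settings, Col6a1 in 6 and Col5a1 in 4.

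Within a genotype these genes varied more than most. Over the 14 probe sets with a mean of at least 6 the median SD within genotypes was 0.22, against 0.14 for all probe sets of that brightness. Deviations from the genotype means were compared between the 8 genes with a bright probe set, as a description over 10 arrays that share tissue and preparation. Of 28 pairs, 19 had a positive Pearson r, with a median of 0.16. The highest were Col5a2 with Col12a1 (r = 0.68, Spearman's rho = 0.70), Col3a1 with Col14a1 (0.63 and 0.59) and Col5a1 with Col14a1 (0.62 and 0.60). Col1a2 and Col14a1, the genes that differed most between genotypes, had an r of -0.19, and Col1a2 with Col3a1 had 0.52. The lowest pair was Col12a1 with Col15a1 (-0.44).

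Over 34944 other single-gene probe sets, those whose deviations were most like Col1a2 belonged to Ncbp3 (r = 0.98, rho = 0.98), Gsc2 (0.96 and 0.94) and Rbm48 (0.95 and 0.94). For Col14a1 they were Tm4sf4 (0.97 and 0.95), Zfp263 (0.96 and 0.92) and Aebp2 (0.95 and 0.94). Those of Col3a1 were Tmem191c, Zfp518b and Cdh17 (0.94 to 0.96), and those of Col6a1 were Ints5, Rasd2 and Cep97 (0.89 to 0.91). For Col12a1 they were Samd1, Spef1 and Kif3a (all 0.98), for Col15a1 Parp11, Zfc3h1 and Myef2 (0.93 to 0.98), and for Col5a2 Smc4, Dbf4 and Atp10a (0.97 to 0.98). Col5a1 was most like Galnt2 (0.96), Socs7 (0.95) and Bmp1 (0.94, rho = 0.96). Bmp1 encodes the protease that removes the end piece of fibrillar procollagens, and it is the only gene of the lists below among these 24. Each was picked as one of the highest of 34944 values, so the r values carry that selection. The matched probe sets were not filtered by signal. Means were under 6 for Cdh17 (4.05), Aebp2 (4.61), Spef1 (5.01), Parp11 (5.07), Rasd2 (5.2), Gsc2 (5.89) and Myef2 (5.89).

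Cell markers were read beside these values. The mean of 7 interstitial fibroblast markers (Pdgfra, Pi16, Mfap5, Clec3b, Scara5, Smoc2 and Fbln1) was 7.07 to 7.28 in wild types against 6.99 to 7.22 in mutants, and 0 of the 7 passed. The mean of 9 mesangial and smooth muscle markers was 10.37 to 10.72 against 10.64 to 11.16, and 0 of the 9 passed. It was highest in mutant 5, which was also highest for Col1a1 and for the brighter Col12a1 probe sets. The markers did not move together in this mouse. Mutant 5 was the highest mutant for Acta2 (13.29 against 11.72 to 12.45 in other mutants), Tagln, Cnn1, Rgs5 and Myh11. It was the lowest mutant for Pdgfrb (12.42) and Itga8 (13.73), and for Des and Gata3 it lay within the range of the other mutants. Of 5 leukocyte markers, the macrophage receptor gene Csf1r fell by 0.99 on the log2 scale (SE 0.17, adjusted p = 0.0220). The other 4 (Cd68, Adgre1, Ptprc and Cd3e) differed by -0.13 to 0.14 and did not pass, and the mean of the 5 overlapped, at 6.67 to 7.43 in wild types against 6.45 to 7.09 in mutants. Endothelial (7) and parietal (3) markers held no gene that passed. The part of these cells in the collagen differences was not tested.

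Tubule markers varied most from mouse to mouse. The mean of 6 proximal tubule markers spanned 5.97 to 9.04 among wild types against 6.76 to 10.27 among mutants, and that of 5 distal nephron markers 7.07 to 9.63 against 7.27 to 9.91. All 6 proximal and all 5 distal markers had positive differences, with medians of 0.6 and 0.34, and 0 of them passed. Wild types 5 and 2, the highest of their genotype at both brighter Col14a1 probe sets and at Col3a1 1427883_a_at, had the lowest proximal means, 5.97 and 7.91. Mutant 5, with the lowest mutant mean (6.76), was the lowest mutant at both brighter Col14a1 probe sets and the highest at Col12a1 1434411_at. At the dim Col14a1 1453931_at wild type 4 (4.69) stood above wild type 2 (4.23), and mutant 5 (5.90) was the highest mutant. Deviations of 7 of the 8 bright genes correlated with the tubule score at -0.56 to -0.09, and those of Col15a1 at 0.53. When the fit also held the tubule score, an alternative added after seeing the data, all 7 differences still passed and Col12a1 (1434411_at) passed too (1.04 ± 0.19 SE, adjusted p = 0.0297).

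Genes that make, bind or break down collagen were counted in 10 lists, with 1 probe set per gene. Of 113 measured genes of 121 listed, 7 rose and 2 fell, and 1.26% of all 18193 genes passed (0.566% higher and 0.698% lower). The median difference of the 113 was 0.04, and of all genes 0.0043. The lists were drawn up with earlier results of these data known, and 8 listed genes are not analysed here.

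Among 32 other collagen chains only Col8a1 passed. It encodes a chain of type VIII collagen, a short-chain collagen that forms networks in vessel walls and membranes. At 1455627_at (chromosome 16) it read 9.47, 10.20, 9.66, 10.12 and 10.57 in wild types and 11.35, 11.23, 11.35, 11.65 and 11.80 in mutants. All mutants lay above all wild types, with a difference of 1.47 ± 0.19 (SE, adjusted p = 0.00423), or 2.78-fold. Its other 2 probe sets also rose, by 1.46 ± 0.27 (SE, adjusted p = 0.0331) and 1.59 ± 0.22 (SE, adjusted p = 0.00653). None of 5 fibrillar chains outside the 10 genes passed (Col11a1 -0.23 ± 0.07 and Col27a1 0.35 ± 0.11, SE) and none of 7 fibril-associated chains did (Col16a1 0.16 ± 0.12 and Col9a2 -0.09 ± 0.08, SE). In the list of other collagens Col6a5 stood next after Col8a1, at -0.25 ± 0.09 (SE). Signal was low for Col6a5 (mean 3.56), Col9a2 (4.41) and Col11a1 (4.95). It was also low for the fibrillar chains Col24a1 (3.13) and Col11a2 (4.95), so little can be read from their differences. The 6 type IV chains had a median of -0.10, with Col4a4 at -0.16 ± 0.08 and Col4a3 at -0.25 ± 0.13 (SE), and 0 of the 6 passed.

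**Figure D4:**
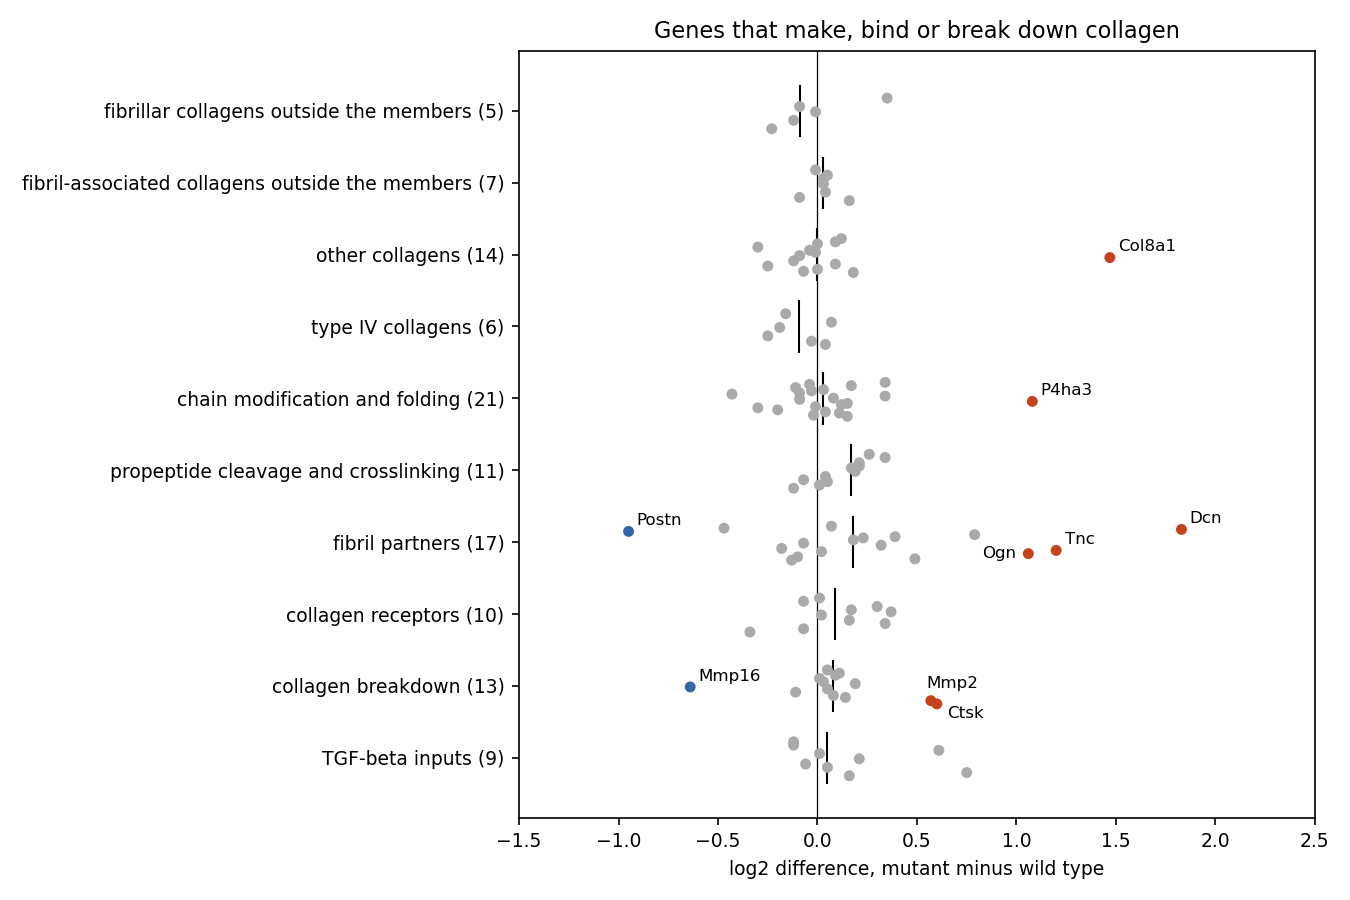
Difference between genotypes (mutant minus wild type, log2 units, x axis) of each measured gene in 10 lists, with the number of genes in brackets and a line at the median; red genes rose, blue genes fell and grey genes did not pass. Col8a1, P4ha3, Dcn, Tnc, Ogn, Ctsk and Mmp2 rose, Postn and Mmp16 fell, and 6 of the 10 lists hold only grey points.

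Of 21 genes that modify and fold collagen chains only P4ha3 passed. It encodes a catalytic subunit of prolyl 4-hydroxylase, whose product stabilises the triple helix. Its values were 4.05, 4.06, 4.21, 3.91 and 4.33 in wild types and 4.94, 5.32, 5.32, 4.98 and 5.40 in mutants (1446951_at, chromosome 7). The genotypes were apart by more than the spread within either, though at low signal, and the difference was 1.08 ± 0.11 (SE, adjusted p = 0.000702). P3h3, a prolyl 3-hydroxylase, did not pass at 0.34 ± 0.08 (SE, adjusted p = 0.0998). Of 11 genes of propeptide cleavage and crosslinking 0 passed, with 9 positive differences. Loxl1, a lysyl oxidase-like enzyme, stood at 0.34 ± 0.11 (SE, adjusted p = 0.257) and Pcolce, which enhances procollagen cleavage, at 0.21 ± 0.07 (SE, adjusted p = 0.270).

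Proteins that bind fibrils held 4 of the 9 changes. Of 17 genes, Dcn, Tnc and Ogn rose and Postn fell. Ogn, the small proteoglycan osteoglycin, read 7.96, 7.73, 7.53, 7.92 and 7.59 in wild types and 8.50, 8.99, 8.87, 8.62 and 9.02 in mutants (1419662_at, chromosome 13). Its difference was 1.06 ± 0.12 (SE, adjusted p = 0.00159), and the other probe set gave 1.07 ± 0.12 (SE, adjusted p = 0.00126). The proteoglycan decorin gene Dcn read 7.22 to 7.85 in wild types and 8.79 to 9.69 in mutants (1.83 ± 0.16 SE, adjusted p = 0.000252), while its dim second probe set differed by -0.03. Tnc, for tenascin C, read 8.08 to 8.65 and 9.36 to 9.70 (1.20 ± 0.11 SE, adjusted p = 0.000395). Its second probe set, with a mean of 4.44, overlapped and did not pass (0.69 ± 0.31 SE, adjusted p = 0.535). Postn, periostin, fell by 0.95 on the log2 scale (SE 0.19, adjusted p = 0.0469) with genotypes that overlapped. The Postn call was kept only without wild type 2 when a mouse was left out (adjusted p up to 0.117 otherwise). Array weights (0.0530), a mean-variance trend (0.0505) and the tubule score (0.0664) also ended it.

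Breakdown enzymes moved in both directions. Ctsk, the collagen-degrading protease cathepsin K, read 7.86, 7.92, 7.71, 8.09 and 7.96 in wild types and 8.45, 8.49, 8.62, 8.44 and 8.54 in mutants (1450652_at, chromosome 3). The mutants lay within 0.2 of each other and above all wild types, and the difference was 0.60 ± 0.08 (SE, adjusted p = 0.00297). In the 7 mice with neighbouring animal numbers Ctsk did not pass (adjusted p = 0.0881, and 0.119 with the run of numbers as a block), and neither did Mmp16 (0.114 and 0.0819). Mmp2, a gelatinase, rose by 0.57 ± 0.10 (SE, adjusted p = 0.0213) at 1416136_at. This call was lost when any of wild types 1, 3 and 4 or mutants 2 and 4 was left out, with 0.0679 as the highest adjusted p. The other Mmp2 probe set also rose, by 0.50 ± 0.09 (SE, adjusted p = 0.0251), with no overlap between genotypes. Mmp16, a membrane-bound metalloprotease, fell by 0.64 on the log2 scale (SE 0.10, adjusted p = 0.0128) at 1437568_at, with wild types at 7.83 to 8.10 and mutants at 7.07 to 7.53. Its 3 other probe sets were also negative (-0.65 to -0.43) and did not pass. The remaining 10 of the 13 genes in the breakdown list, which also holds the metalloproteinase inhibitors Timp1, Timp2, Timp3 and Timp4, did not pass.

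Receptors and upstream signals held no gene that passed. Of 10 collagen receptors, Ddr2, a tyrosine kinase that binds fibrillar collagen, differed by 0.34 ± 0.09 (SE, adjusted p = 0.173) and Mrc2, which takes up collagen fragments, by 0.37 ± 0.12 (SE, adjusted p = 0.289). Of 9 genes of TGF-beta signalling, a main inducer of fibrillar collagen genes, Tgfb3 differed by 0.61 ± 0.18 (SE, adjusted p = 0.242) and Tgfb2 by 0.75 ± 0.23 (SE, adjusted p = 0.253). A p above the threshold does not show that these genes were alike in both genotypes.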

How the data were processed

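The deposited values are log2 expression values on mouse arrays that, per the submitters' processing notes, the authors made with RMA (version and settings not given in the sources used here). RMA normalizes between arrays. All 10 columns were matched to mice through the sample identifiers that name them, and the animal numbers were read from the sample titles. Of 45101 probe sets, 64 controls were left out. The annotation gave 1 gene for 34945, several for 932 and none for 9160. Counts of genes use the brightest single-gene probe set of each.

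The test was limma (version 3.58.1, under R version 4.3.3) with genotype alone, with two-sided p-values adjusted by Benjamini-Hochberg over 45037 probe sets. The fit was tested on simulated data. The 10 genes and the lists were chosen with earlier results of these data known. Named genes are all 10, the called genes and 2 smallest p-values of each list, and the 3 most alike probe sets per bright collagen gene. Promoters came from RefSeq (GRCm38.p6). Figures used matplotlib (version 3.10.9). Alternatives covered normalization, signal filters, variance models, array weights, probe set choice, mice with neighbouring animal numbers and each mouse left out.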

Additional observations from a re-analysis of the deposited data

Results flagged for a closer look

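In 92 groups of 5 mice, 5 held a mouse whose gap to the nearest other exceeded Dixon's critical share of the group's range, where chance gives about 1 in 20. Mutant 5 was such a mouse for Col14a1 (1427168_a_at, 8.78 against 9.21 to 9.38 in the other mutants). It was so too for Col12a1 (1427391_a_at, 8.49 against 7.54 to 7.78) and for Col5a3 (1419703_at, 5.83 against 5.49 to 5.57). Wild type 5 stood apart at the dim Col12a1 probe set 1440101_at (3.99 against 3.54 to 3.62). For Tnc, mutant 1 was low (1416342_at, 9.36 against 9.63 to 9.70).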

How the results depend on the processing

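Centring on the median, quantile normalization, signal filters, another variance model, array weights, removal of probe sets ending in _s_at or _x_at and gene means kept every count within 1.5 times the reported one. In the 7 mice with neighbouring animal numbers (wild types 2, 3 and 4 with mutants 1, 2, 3 and 4), 110 probe sets passed over the whole array, or 126 with the run of numbers as a block, in place of 384. Of the collagen probe sets 4 passed in place of 7 in both fits, of the collagen genes 2 in place of 4, and of the genes in the lists 5 in place of 9. Col5a1, Col6a1 and the dim Col14a1 probe set were lost there, as were Ctsk, Mmp16, Mmp2 and Postn. These fits held fewer mice. Without the block the differences were, in the same order, 0.49, -0.72, 1.02, 0.59, -0.64, 0.58 and -0.79. Over all 10 mice they were 0.44, -0.74, 1.09, 0.60, -0.64, 0.57 and -0.95. Leaving out each mouse gave 216 (without wild type 4) to 301 probe sets over the whole array, with 242 without wild type 1, 4 to 7 of the collagen probe sets, 2 to 5 of the collagen genes (2 without wild type 1, wild type 3 or mutant 4) and 7 to 9 of the genes in the lists. The sign turned only at 3 dim probe sets with differences near 0. Col5a3 1419703_at was 0.02 with the tubule score and -0.09 to 0.02 with a mouse left out. Col5a3 1425984_at was -0.05 to 0.08 with a mouse left out, negative without wild type 2 (-0.02) or mutant 2. Col12a1 1440101_at was 0.04 in the 7 mice in both fits and -0.08 to 0.03 with a mouse left out. No paired analysis was possible because replicate numbers only name mice and the labels give no litters. Col1a1 and Col5a3 were measured only at low signal.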
